A study of Homo sapiens with 60 samples.

Results

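The comparison described here is the step from 8 to 16 h of exposure to 3 nM of the dimerizer AP20187, with the 3 libraries taken after 16 h set against the 3 taken after 8 h. They are 6 of the 60 libraries of the series and were chosen by their labelled dose and time alone. All libraries came from 1 engineered line, U2OS Dmr-PERK, whose genotype is labelled WT. U2OS is an established human osteosarcoma line, and here it stably carried the eIF2 alpha kinase domain of mouse PERK joined to DmrB, a domain that pairs when AP20187 is added. The other groups used were 3 nM at 1, 2, 4 and 24 h, the middle dose at 8 and 16 h, written 0.2 nM here as in the study's design text, 0.01 nM at 8 and 16 h, and the untreated set of 3 libraries with the depth of the 3 nM libraries (untreated set 2), with 3 libraries in each. The labels' protocols have cells plated 1 day ahead, with the dimerizer added at set times before collection. No untreated culture is labelled for each time. Within 1 dose, exposure to the drug therefore cannot be told apart from anything else that differed between the times. The question the step answers is which transcripts moved between 8 and 16 h of the strongest dose. A further one is which of them moved little in the other steps of that dose from 1 h on.

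PERK is 1 of the kinases that phosphorylate the initiation factor eIF2 alpha and so start the integrated stress response (ISR). Phosphorylated eIF2 alpha lowers protein synthesis in general, while a few mRNAs with upstream reading frames, ATF4 among them, are translated more. ATF4 then switches on genes for amino acid supply, tRNA charging and feedback, including PPP1R15A, which brings a phosphatase back to eIF2 alpha. When protein synthesis is low, short-lived inhibitors such as that of NF-kB are replaced slowly, and NF-kB is known to become active in cells whose eIF2 alpha is phosphorylated.

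The 6 libraries held 20943740 to 28436165 counts after rounding, against 5598612 to 10367375 in the libraries of the lower doses and of the other untreated set. The deposited values are estimated counts per gene, and levels are given as normalised CPM, counts scaled to library totals with TMM factors and therefore not corrected for gene length. Differences were tested with edgeR's quasi-likelihood F test in 1 fit of all 60 libraries, and a gene is called at a Benjamini-Hochberg adjusted p under 0.05. Replicates were close, with a median coefficient of variation of 2.74% at 16 h and 3.04% at 8 h among genes above 20 CPM, and small differences are therefore called. Whether replicates were separate cultures is not labelled, so a p-value here covers the spread among these libraries, part or all of which may be technical. VIM, SPARC and COL1A1, markers of mesenchymal cells and osteoblasts, were abundant at both times, while TWIST1 and COL1A2 of the same list were too low to be tested. The summed level of that list of 11 genes was 2282 to 2307 CPM at 16 h and 3438 to 3524 CPM at 8 h. In whole cultures, fewer cells of a kind and less RNA per cell cannot be told apart.

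Large changes in the step were mostly falls. Of 18040 genes tested, 1203 (6.67%) were at least 2-fold lower at 16 h than at 8 h, and 204 (1.13%) were at least 2-fold higher. At any size, 4850 genes (26.9%) were lower and 4921 (27.3%) higher, together 54.2% of the genes tested, with a median log2 fold change of -0.0045 over all genes. The even split belongs to smaller changes, and it depends on the scale. On the deposited TPM with limma, log2(TPM + 0.1), 3603 genes were lower and 1712 higher, 32.2% of those called being higher against 50.4% in the counts. None of the other 4 steps from 1 h on at 3 nM had as many 2-fold falls, as the plot of genes per step shows. The 4 to 8 h step had 518 (2.87%) and the 16 to 24 h step 98 (0.543%), and the step from 8 to 16 h had 571 (3.17%) at 0.2 nM and 362 (2.01%) at 0.01 nM. Rises of at least 2-fold from 8 to 16 h numbered 201 (1.11%) at 0.2 nM and 318 (1.76%) at 0.01 nM. The lower doses were read less deeply, which limits what can be called there.

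**Figure D1:**
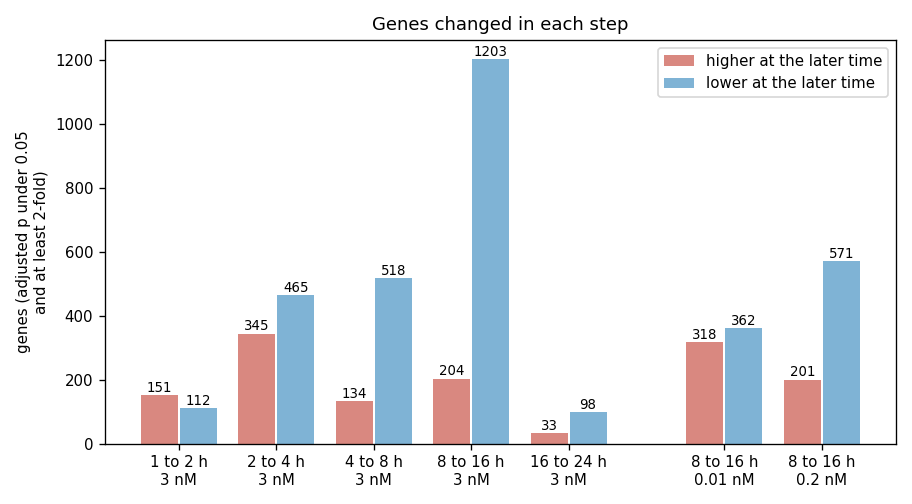
Number of genes (vertical axis) called with at least a 2-fold change in each step along the horizontal axis, in red where the later time was higher and in blue where it was lower. The step from 8 to 16 h at 3 nM has the tallest bar, 1203 genes lower at 16 h, beside 204 genes higher.

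Most of the genes that fell were already below the untreated level at 8 h. Of the 1203 genes, 1078 were called below untreated set 2 at 16 h, 31 above it and 94 were not called, whereas at 8 h 703 were below, 247 above and 253 not called. Over all genes tested, 36.9% were called below untreated at 16 h and 34.8% at 8 h. The median log2 difference of the 1203 genes from untreated was -2.12 at 16 h and -0.65 at 8 h. Of the 204 genes that rose, 137 were above untreated, 16 below and 51 not called at 16 h, against 63 above, 74 below and 67 not called at 8 h, where 38.6% of all genes were called above untreated at 16 h and 35.9% at 8 h. These counts use the 8 and 16 h libraries that also define the step, so they describe where the levels lay and are no further test.

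The largest falls include genes for secreted factors, adhesion proteins and early transcription factors. IGFBP5, a secreted binder of insulin-like growth factors (GRCh38 chromosome 2, 216672105 to 216695525), stood at 2.11, 1.11 and 2.03 CPM at 16 h, against 55.2, 65.1 and 55.9 CPM at 8 h. All 16 h libraries were below all 8 h libraries, which at any distance was so for 30.3% of all genes tested, and the log2 fold change was -5.08 (SE 0.16, n = 3 libraries per group, edgeR adjusted p = 5.8e-34). CSF2, the cytokine GM-CSF, was at 0, 0.128 and 0.265 CPM at 16 h and at 5.00, 4.50 and 4.70 CPM at 8 h (log2 fold change -5.03, SE 0.36). The long noncoding RNA MIAT had 1.67, 0.983 and 1.19 CPM at 16 h and 33.3, 33.1 and 29.9 CPM at 8 h (log2 fold change -4.65, SE 0.16). The chemokine CXCL14 had a log2 fold change of -4.43, the early growth response factor EGR4 of -4.36, and TNS4, a tensin of focal adhesions, of -4.16. For IL1RN, the receptor antagonist of interleukin 1, 1 read was counted over the 16 h libraries and 93 over the 8 h libraries, which is 84.3-fold lower at 16 h with an exact 95% counting interval of 14.8 to 3360. INO80B-WBP1 had 0 counts at 16 h and 95 at 8 h, at least 28.7-fold lower with 3 counts taken as the floor for the whole group. It is a read-through of 2 neighbouring genes whose reads cannot be told from theirs, so its value is uncertain. Its call was lost without any 1 of the 16 h libraries or without 8 h replicate 2 (edgeR adjusted p = 0.087 to 0.17).

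**Figure D2:**
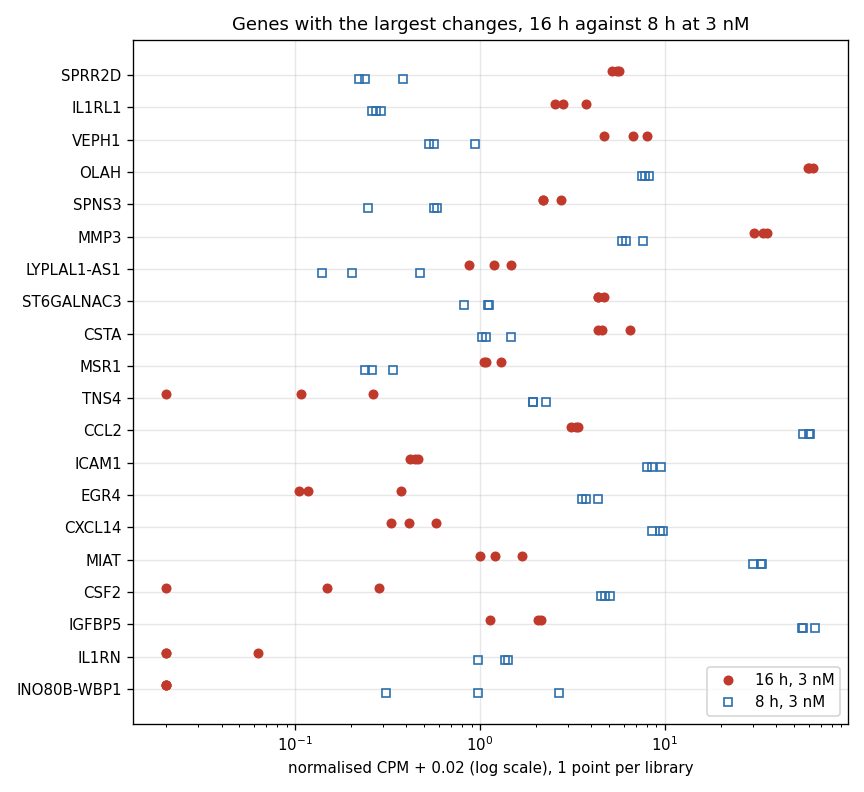
Normalised CPM plus 0.02 (log scale, horizontal axis) of the 10 genes with the largest rise and the 10 with the largest fall, with 1 red point for each 16 h library and 1 open blue square for each 8 h library. The groups are apart for every gene shown, and the values of IGFBP5 lie between 1.11 and 2.11 CPM at 16 h against 55.2 to 65.1 CPM at 8 h.

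The largest rises were of genes that were low at 8 h. SPRR2D, a small proline-rich protein of the cornified envelope of skin, was at 5.65, 5.13 and 5.47 CPM at 16 h and at 0.364, 0.201 and 0.219 CPM at 8 h (log2 fold change 4.35, SE 0.27, n = 3 libraries per group, edgeR adjusted p = 1.8e-17), with all 16 h libraries above all 8 h libraries, as was so for 30.2% of genes tested. IL1RL1, the receptor of interleukin 33, was at 2.80, 2.52 and 3.71 CPM at 16 h and at 0.273, 0.241 and 0.255 CPM at 8 h (log2 fold change 3.51, SE 0.35). OLAH, a thioesterase of fatty acid synthesis, and MMP3, a matrix metalloproteinase, were the 2 rising genes of this rank with the highest levels of their own. OLAH reached 59.4, 60.5 and 63.1 CPM at 16 h, against 7.77, 8.23 and 7.46 CPM at 8 h (log2 fold change 2.96). MMP3 reached 30.5, 33.7 and 35.6 CPM at 16 h, against 6.13, 7.59 and 5.83 CPM at 8 h (log2 fold change 2.35). VEPH1 had a log2 fold change of 3.28, the transporter family gene SPNS3 of 2.35, the antisense RNA LYPLAL1-AS1 of 2.21, the sialyltransferase gene ST6GALNAC3 of 2.14, the cysteine protease inhibitor CSTA of 2.12 and the scavenger receptor MSR1 of 2.10. The counting is not stated to use strand, so reads of LYPLAL1-AS1 and of a gene on the other strand cannot be told apart. SPRR2D and OLAH had also risen from 4 to 8 h, by log2 fold changes of 3.50 and 2.24, so both rose in 2 steps in a row. MSR1 and IL1RL1 are best known from blood cells. The summed level of the 10 blood markers, at 16 h most of it CD68, was 7.93 to 9.80 CPM at 16 h and 4.78 to 5.78 CPM at 8 h, with 8 of the 10 under 1 CPM at both times and CD3E, LYZ, HBB and HBA1 among those at 0 at 16 h, and its part in these rises was not tested.

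NF-kB targets fell as a group. Of 33 genes on the list, 28 passed the filter on low counts, and 25 of these were lower at 16 h, 1 was higher and 2 were not called, with a median log2 fold change of -1.23 and 16 genes at least 2-fold lower. NF-kB is a family of transcription factors held in the cytoplasm by inhibitors that are themselves its targets. The promoters of 25 of the tested genes were in the RefSeq table (GRCh38.p14, 250 bases before to 50 after the start). A kB site, spelled GGG, any 2 bases, then TTTCC and searched on both strands, was in 10 of the 25 (40%) and in 523 of all 27305 promoters (1.92%). Printed next are 3 that hold it, chosen after their values were seen, each 5′ to 3′ on the strand of its gene with the match in capitals: LTB (chr6:31582376-31582675, minus strand), BIRC3 (chr11:102317234-102317533, plus strand) and TNFAIP3 (chr6:137867009-137867308, plus strand), the last with a pair of matches.
LTB: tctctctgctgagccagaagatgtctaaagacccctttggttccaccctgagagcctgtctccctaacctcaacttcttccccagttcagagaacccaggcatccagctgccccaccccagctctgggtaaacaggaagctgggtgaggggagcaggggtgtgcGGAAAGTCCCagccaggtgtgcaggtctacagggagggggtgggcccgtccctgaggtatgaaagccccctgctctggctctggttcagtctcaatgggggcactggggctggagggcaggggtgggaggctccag
BIRC3: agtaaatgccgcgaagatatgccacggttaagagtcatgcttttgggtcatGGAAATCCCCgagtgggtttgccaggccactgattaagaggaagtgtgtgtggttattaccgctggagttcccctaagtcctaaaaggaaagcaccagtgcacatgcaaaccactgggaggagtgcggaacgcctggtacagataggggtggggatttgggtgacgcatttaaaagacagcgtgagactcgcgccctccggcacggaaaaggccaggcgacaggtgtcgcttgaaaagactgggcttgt
TNFAIP3: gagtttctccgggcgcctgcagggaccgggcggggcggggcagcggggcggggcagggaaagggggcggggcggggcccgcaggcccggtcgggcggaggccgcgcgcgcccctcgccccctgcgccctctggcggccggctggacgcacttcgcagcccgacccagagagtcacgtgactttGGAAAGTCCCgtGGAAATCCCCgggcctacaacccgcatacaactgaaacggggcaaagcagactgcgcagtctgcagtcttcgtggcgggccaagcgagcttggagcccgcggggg
A match is a description of the letters and not evidence of binding, and ICAM1 and CSF2, which fell as much or more, had none in this window. LTB, which encodes the cytokine lymphotoxin beta, was at 0.393, 0.427 and 0.132 CPM at 16 h and at 5.32, 5.14 and 6.34 CPM at 8 h (log2 fold change -4.11, SE 0.30, edgeR adjusted p = 1.1e-17). BIRC3, an inhibitor of apoptosis that also tags signalling proteins with ubiquitin, was at 36.3, 36.4 and 37.3 CPM at 16 h and at 204, 199 and 188 CPM at 8 h (log2 fold change -2.42, SE 0.073). TNFAIP3, the ubiquitin-editing inhibitor A20, was at 15.0, 17.7 and 16.5 CPM at 16 h and at 40.4, 45.8 and 42.9 CPM at 8 h (log2 fold change -1.39). The groups did not overlap for any of these genes.

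CSF2, ICAM1, CCL2 and LTB had the largest falls on the list. CCL2, which draws monocytes, was at 3.29, 3.08 and 3.35 CPM at 16 h and at 56.2, 61.3 and 60.2 CPM at 8 h (log2 fold change -4.19, SE 0.16). ICAM1, the leukocyte adhesion receptor, was at 0.442, 0.427 and 0.397 CPM at 16 h and at 8.45, 9.56 and 7.97 CPM at 8 h (log2 fold change -4.33, SE 0.29). Relative to untreated set 2, ICAM1 had a log2 difference of -1.12 at 16 h and 3.21 at 8 h, and BIRC3 one of 0.90 at 16 h and 3.33 at 8 h. NFKBIA, the main inhibitor of NF-kB, was chosen after its value was seen, and its log2 fold change was -0.996. The NF-kB subunit RELA changed little (-0.09), and IL1A was the 1 member that rose (0.35), with libraries of the 2 times that overlapped. No member was called higher without 16 h replicate 3, without 8 h replicate 1 or 3, with DESeq2 or on log2(TPM + 0.1). The median log2 fold change of the 28 genes was 1.08 from 1 to 2 h, -0.28 from 4 to 8 h, -1.23 from 8 to 16 h and 0.41 from 16 to 24 h.

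Most clock genes on the list fell as well. Of 17 tested genes on the circadian list, 12 were lower at 16 h and 2 higher, with a median log2 fold change of -1.12 and 9 genes at least 2-fold lower. The proteins CLOCK and ARNTL (BMAL1) bind E-boxes in front of PER, CRY, NR1D, DBP, TEF and BHLHE genes, and several of the products feed back on them. CLOCK (-0.03) and ARNTL (0.08) were not called, and NPAS2, a relative of CLOCK, rose (0.92), as did NFIL3 (0.51), which competes with DBP and TEF for their sites. An E-box spelled CACGTG, searched on both strands, was in 4 of the 16 promoters found (25%) and in 2030 of 27305 (7.44%), and that of TEF (chr22:41367205-41367504, plus strand), the gene of the list with the largest fall, is printed with its match in capitals.
TEF: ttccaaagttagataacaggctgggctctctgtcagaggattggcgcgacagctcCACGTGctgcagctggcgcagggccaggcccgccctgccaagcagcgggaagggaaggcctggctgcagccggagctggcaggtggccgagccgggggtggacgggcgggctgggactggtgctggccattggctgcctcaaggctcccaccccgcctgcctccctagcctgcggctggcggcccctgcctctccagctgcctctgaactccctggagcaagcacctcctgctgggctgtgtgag
TEF was at 10.3, 11.1 and 11.7 CPM at 16 h and at 48.7, 47.8 and 54.3 CPM at 8 h (log2 fold change -2.19, SE 0.069, n = 3 libraries per group, edgeR adjusted p = 2.3e-34). BHLHE40, a repressor of the clock, was at 59.98, 64.4 and 64.4 CPM at 16 h and at 239, 246 and 242 CPM at 8 h (log2 fold change -1.94). Its relative BHLHE41 had a log2 fold change of -1.93 and the period gene PER2 one of -1.74. The libraries of the 2 times did not overlap for any of the 4.

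Most listed genes of the cell surface and matrix fell. Of 26 tested genes for collagens and other matrix proteins, 21 were lower and 2 higher, with a median log2 fold change of -0.64. COL3A1, a fibrillar collagen, was at 0.835, 0.684 and 0.750 CPM at 16 h and at 7.91, 6.43 and 7.36 CPM at 8 h (log2 fold change -3.25, SE 0.16). The proteoglycan gene LUM had a log2 fold change of -2.88 and the collagen gene COL11A1 one of -2.19. TNC, the matrix protein tenascin C, went against the list, with 787, 806 and 846 CPM at 16 h and 278, 282 and 266 CPM at 8 h (log2 fold change 1.56, SE 0.046, edgeR adjusted p = 7.5e-36). Of 17 adhesion genes, 13 were lower and none higher, among them L1CAM (-2.67) and the integrin subunits ITGB3 (-1.84) and ITGB8 (-1.83). Of 16 TGF-beta targets, 15 were lower and none higher, with a median of -0.91, and ACTA2 (0.02) was not called. PMEPA1, a feedback inhibitor of TGF-beta signalling, was at 109, 115 and 117 CPM at 16 h and at 411, 426 and 421 CPM at 8 h (log2 fold change -1.88, SE 0.053). INHBA, an activin subunit, had a log2 fold change of -1.62 and the cytokine IL11 one of -1.30. These lists fell from 8 to 16 h at the lower doses too. Of the TGF-beta list, 14 genes were lower at 0.2 nM and none higher (median -0.91). At 0.01 nM 13 were lower and 1 higher (median -0.72). Of all genes, 16.8% were lower at 0.2 nM and 17.7% at 0.01 nM. Medians at 0.2 and 0.01 nM were -0.58 and -0.40 for the matrix list, and -0.45 and -0.31 for the adhesion list.

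Most genes of several other lists fell too. All 6 tested genes of the metallothionein list, whose products bind zinc and copper or export zinc, were lower, with a median log2 fold change of -1.05. MT1X was at 15.8, 15.5 and 15.2 CPM at 16 h and at 66.2, 69.2 and 65.9 CPM at 8 h (log2 fold change -2.12), and MT1E had one of -1.60. Metallothionein genes are near-identical copies whose reads are shared by estimation, so the values of single members are uncertain. Of 24 immediate early genes, 18 were lower and 2 higher, with a median of -0.83. EGR2 (-2.60), IER3 (-1.59) and FOS (-1.53) led after EGR4, MYC fell by 0.27 on the log2 scale, and SRF rose (0.61). The fall of the immediate early list began before this step, with medians of -1.04 from 2 to 4 h and -0.90 from 4 to 8 h. The step was called below that from 4 to 8 h for 7 of its genes and above it for 7. Of 29 genes for sterol and fatty acid synthesis, 19 were lower and 1 higher (median -0.32), with the desaturase gene FADS2 at 37.1, 39.5 and 36.5 CPM at 16 h and at 141, 133 and 141 CPM at 8 h (log2 fold change -1.87). The sterol list too had fallen earlier, with medians of -0.21 from 2 to 4 h and -0.37 from 4 to 8 h. Of 28 interferon-stimulated genes, 14 were lower and 3 higher (median -0.40; 15 and none on log2(TPM + 0.1)), led among those that met the rule for named genes by IFI6 (-1.53) and USP18 (-1.49). Of 14 tested keratin and envelope genes, 10 were lower and 3 higher. KRT17 was at 494, 514 and 522 CPM at 16 h and at 1402, 1417 and 1510 CPM at 8 h (log2 fold change -1.50), while SPRR2D rose. The summed level of the 10 epithelial markers, most of it KRT8 and KRT18, was 735 to 747 CPM at 16 h and 1080 to 1139 CPM at 8 h, with 4 of the 10 under 1 CPM at both times and GRHL2 at 0 at 16 h. Its part in the keratin values was not tested.

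**Figure D3:**
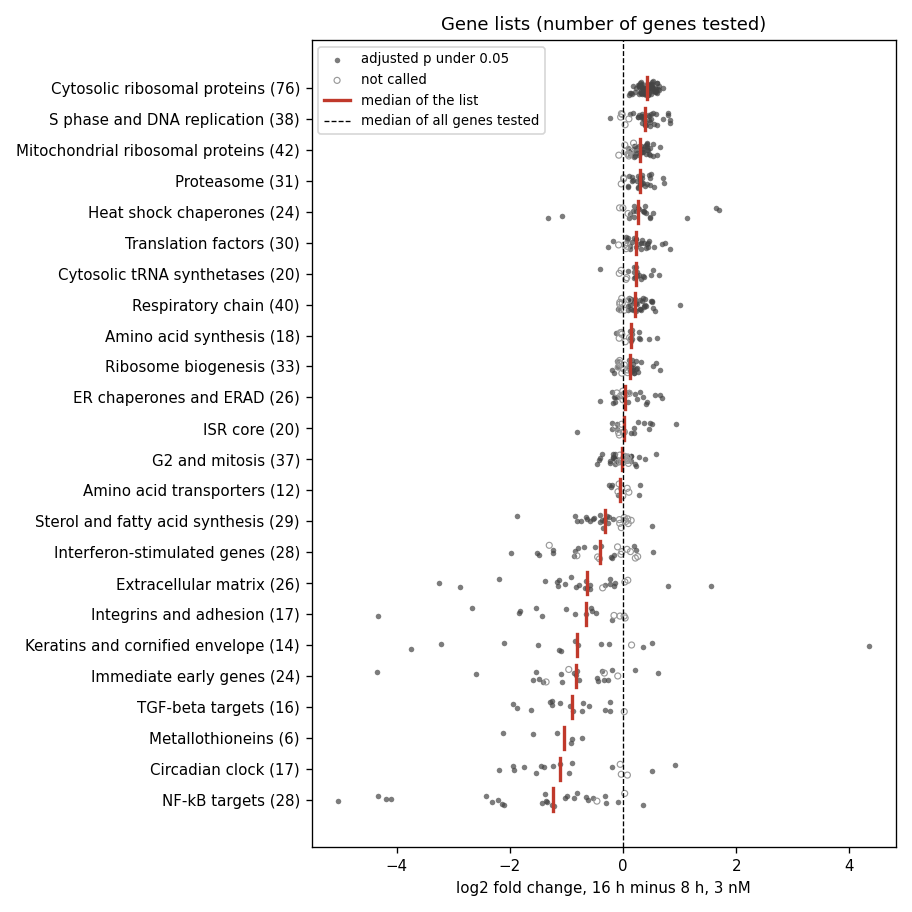
Log2 fold change, 16 h minus 8 h at 3 nM (horizontal axis), of every tested gene of 24 lists, with filled points for genes called, open circles for genes not called, a red bar for each list's median and a dashed line for the median of all genes. Medians run from 0.42 for cytosolic ribosomal proteins to -1.23 for NF-kB targets.

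The genes that rose together are those of protein synthesis, protein breakdown and DNA replication, and their changes were small. All 76 genes for cytosolic ribosomal proteins were higher at 16 h, by log2 fold changes from 0.11 to 0.70 with a median of 0.42, and none by as much as 2-fold. FAU, whose product holds the ribosomal protein eS30, was at 322, 325 and 314 CPM at 16 h and at 193, 199 and 200 CPM at 8 h (log2 fold change 0.70, SE 0.042, edgeR adjusted p = 1.1e-21), and the libraries of the 2 times did not overlap. RPL26 and RPL8 of the large subunit had log2 fold changes of 0.63 and 0.62. On log2(TPM + 0.1), 72 of the 76 were called higher and none lower, with a median of 0.31. The same list had a median log2 fold change of 0.0034 from 4 to 8 h and of -0.058 from 16 to 24 h, and the step was called above the earlier one for 73 of the genes and above the later one for 76, where 15.7% and 18.3% of all genes were. In its level against untreated set 2, the median of the list was 0.23 at 16 h and -0.18 at 8 h.

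Other lists of the translation machinery had more genes higher than lower, with fewer called on log2(TPM + 0.1). Of 30 translation factors 24 were higher and 2 lower (median 0.23), and of 42 mitochondrial ribosomal proteins 33 were higher and none lower (median 0.30). On log2(TPM + 0.1) 18 of the translation factors and 21 of the mitochondrial ribosomal proteins were higher. Of all 18040 genes, 1712 were higher and 3603 lower on that scale, with a median of -0.09. Of 20 cytosolic tRNA synthetases 15 were higher and 1, QARS, lower (median 0.22), but on log2(TPM + 0.1) 4 were higher and 2 lower. Of 17 mitochondrial tRNA synthetases 6 (35.3%) were higher and 1 lower (median 0.07), not far from the 27.3% of all genes that were higher. On log2(TPM + 0.1) 1 was higher and none lower. Of 31 proteasome subunits 28 were higher and none lower (median 0.30), and 18 higher and 1 lower on log2(TPM + 0.1). PSMD2, a subunit of the regulatory particle, was at 972, 1003 and 988 CPM at 16 h and at 577, 612 and 603 CPM at 8 h (log2 fold change 0.73, SE 0.032). Of 38 genes of S phase and DNA replication 32 were higher and 1, TK1, lower (median 0.38), and 21 higher and 1 lower on log2(TPM + 0.1). RFC4, which helps load the sliding clamp, was at 61.2, 64.3 and 61.0 CPM at 16 h and at 32.3, 35.5 and 36.4 CPM at 8 h (log2 fold change 0.84). The helicase subunit gene MCM5 and the origin licensing gene CDC6 each had a log2 fold change of 0.80. Of 37 genes of G2 and mitosis 9 were higher and 15 lower (median -0.02), where 27.3% and 26.9% of all genes were. Without 8 h replicate 3 it was 12 higher and 9 lower, and on log2(TPM + 0.1) 2 higher and 14 lower. The fraction of cells in S phase was not measured in these data.

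Heat shock chaperones mostly rose, over a range of log2 fold changes from -1.33 to 1.70. Of 24 genes 19 were higher and 2 lower, with a median log2 fold change of 0.27. A heat shock element, spelled TTC, GAA and TTC or GAA, TTC and GAA with any 2 bases between the triplets, was in 4 of the 22 promoters found (18.2%) and in 133 of 27305 (0.487%), and no match of 1 of the 3 motifs overlapped a match of another. The promoter of HSPA8 (chr11:123062087-123062386, minus strand) is printed because it holds both spellings, in capitals. HSPA1A and HSPA1B, which rose more, had no match in this window.
HSPA8: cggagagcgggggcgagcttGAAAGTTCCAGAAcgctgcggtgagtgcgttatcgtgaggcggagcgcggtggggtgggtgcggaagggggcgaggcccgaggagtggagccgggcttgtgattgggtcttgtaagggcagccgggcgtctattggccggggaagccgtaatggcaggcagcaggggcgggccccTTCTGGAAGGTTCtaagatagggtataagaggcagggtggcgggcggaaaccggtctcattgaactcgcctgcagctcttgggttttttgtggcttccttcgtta
HSPA8, the constitutive member of the HSP70 family, was at 727, 731 and 743 CPM at 16 h and at 317, 347 and 337 CPM at 8 h (log2 fold change 1.14, SE 0.040, edgeR adjusted p = 2.2e-32), with no overlap. Inducible HSPA1A and HSPA1B, near-identical copies whose reads are shared by estimation, had log2 fold changes of 1.64 and 1.70. HSPA1A was at 39.7, 42.4 and 40.6 CPM at 16 h and at 12.1, 12.5 and 14.5 CPM at 8 h, so the groups were far apart. Both times lay below untreated set 2, by log2 differences of -1.20 at 16 h and -2.84 at 8 h for HSPA1A. The small heat shock proteins did not rise. CRYAB was at 58.4, 53.3 and 52.2 CPM at 16 h and at 132, 141 and 139 CPM at 8 h (log2 fold change -1.33), and HSPB1, outside the rule for named genes and chosen after its value was seen, had one of -1.08, while HSPB8, likewise chosen, had one of -0.06 and was not called.

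The core genes of the ISR moved in both directions. Of 20 genes 9 were higher, 5 lower and 6 not called, where 27.3% of all genes tested were higher and 26.9% lower, and their log2 fold changes ran from -0.81 to 0.93 with a median of 0.01. The balance depended on the scale and on 1 library: on log2(TPM + 0.1) 4 were higher and 6 lower (median -0.08), and 9 were higher and 2 lower without 8 h replicate 3. The median log2 difference of the list from untreated set 2 was 1.97 at 16 h and 1.86 at 8 h. ATF4 was at 762, 784 and 774 CPM at 16 h and at 659, 728 and 725 CPM at 8 h (log2 fold change 0.13, SE 0.032, edgeR adjusted p = 2.8e-04), and on log2(TPM + 0.1) it was not called (0.03, limma adjusted p = 0.5). DDIT3, which encodes CHOP, had a log2 fold change of 0.02 and TRIB3, a pseudokinase that restrains ATF4, one of -0.03, and neither was called. CHAC1, which breaks down glutathione, had one of 0.26 and ATF3 one of -0.20. Members with larger changes included the phosphatase subunit gene PPP1R15A (0.47), NFIL3 (0.51), the secreted glycoprotein gene STC2 (0.93) and the mTORC1 inhibitor DDIT4. ASNS, which makes asparagine, was at 430, 447 and 440 CPM at 16 h and at 313, 318 and 324 CPM at 8 h (log2 fold change 0.46). DDIT4 was at 310.0, 309 and 305 CPM at 16 h and at 516, 537 and 567 CPM at 8 h (log2 fold change -0.81, SE 0.047). EIF2AK3, the gene of PERK itself, had a log2 fold change of 0.19, the endoplasmic reticulum chaperone HSPA5 one of 0.25, and the cell cycle inhibitor CDKN1A one of -0.09 that was not called. On log2(TPM + 0.1) CHAC1, STC2 and EIF2AK3 were not called either (limma adjusted p = 0.47, 0.41 and 0.12), and CDKN1A was called lower there (0.041). How reads of the mouse kinase domain in the construct were counted is not given in the sources used here, so EIF2AK3 may include some.

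The second question was which genes moved in this interval only. A gene was counted when it changed at least 2-fold from 8 to 16 h, changed less than 1.5-fold in each of the other 4 steps at 3 nM (1 to 2, 2 to 4, 4 to 8 and 16 to 24 h), and had a step that differed from both neighbouring steps. By this rule 299 of 18040 genes (1.66%) qualified, 255 of them lower (1.41%) and 44 higher (0.244%). The largest change in another step was 0.58 on the log2 scale for PAX8-AS1, just inside the limit, and 0.59 for HCLS1, just outside it. The steps of 3 nM share libraries, so these counts follow from the rule and are no further test. The rule limits the size of the other steps and does not require them to be uncalled. The median log2 fold change of the 255 genes was -0.26 from 4 to 8 h and -0.11 from 16 to 24 h. That of the 44 was 0.01 and 0.06. Of the 255 genes, 221 are annotated as protein-coding, and 149 had a mean of at least 10 CPM at 1 of the 2 times.

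SYT12, a synaptotagmin of vesicle traffic (chromosome 11, 67006778 to 67050863), had the largest fall of the 255. It was at 5.79, 6.16 and 6.57 CPM at 16 h and at 61.0, 63.8 and 69.4 CPM at 8 h (log2 fold change -3.39, SE 0.083, n = 3 libraries per group, edgeR adjusted p = 2.3e-39). At 1, 2, 4 and 24 h it averaged 57.9, 54.7, 73.6 and 4.81 CPM, and without drug 51.4 CPM, so its level was high up to 8 h and low from 16 h on. ABAT, which breaks down the transmitter GABA, was at 4.37, 3.80 and 4.85 CPM at 16 h and at 40.2, 39.0 and 39.3 CPM at 8 h (log2 fold change -3.18). The noncoding RNA LINC00319 (-3.36), PLEKHB1 (-3.04), the cadherin family gene CLSTN2 (-2.97) and KCNMB4 (-2.86), a subunit of a potassium channel, were the next named. TEF, PER2 and PER3 of the clock, PMEPA1 and TAGLN of the TGF-beta list, and COL5A1 and COL11A1 of the matrix list also met the rule, those outside the rule for named genes being listed after their values were seen. No gene of the NF-kB list met the rule. No gene of the ribosomal protein list could meet it, since none changed 2-fold in this step.

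Among the 44 genes that rose in this interval only, ST6GALNAC3 was at 4.66, 4.32 and 4.32 CPM at 16 h and at 1.09, 0.803 and 1.09 CPM at 8 h (log2 fold change 2.14, SE 0.18). The others named by rule were LINGO2 (1.90), the adhesion receptor ICAM3 (1.73), the decoy receptor gene IL13RA2 (1.58), TMEM71 (1.55) and the ubiquitin ligase gene MARCH3 (1.42). IL13RA2 was at 9.72, 9.62 and 10.6 CPM at 16 h and at 3.18, 3.98 and 2.88 CPM at 8 h, with no overlap. ICAM3 had a log2 difference of -1.05 between 1 h and untreated set 2, a change the rule did not look at. The rule's outcome hangs on its limit: with a tighter limit in the other steps 65 genes qualified, and with 2-fold 565.

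**Figure D4:**
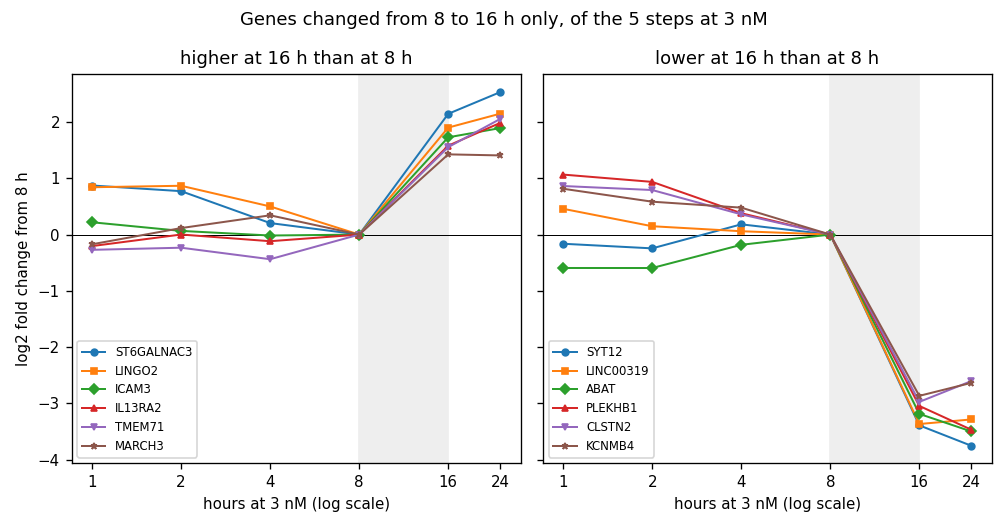
Log2 fold change from the 8 h level (vertical axis) over hours at 3 nM (horizontal axis, log scale) of the 6 genes with the largest rise (left) and the 6 with the largest fall (right) among those that changed from 8 to 16 h only and averaged at least 1 CPM at either time, each line joining fitted steps. All 12 lines bend in the shaded interval, SYT12 falling to -3.39 and ST6GALNAC3 rising to 2.14 at 16 h.

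The third question was whether the step was particular to the dose. The same step at 0.2 nM shares no library with it, and the difference between the steps was tested in the same fit. All 3 nM libraries were deeper than all those of the lower doses, and each depth had its own untreated set. Dose and anything else that differed between these sets of libraries therefore cannot be told apart here. It was called for 2572 genes (14.3%), with the value at 3 nM above that at 0.2 nM for 1333 (7.39%) and below it for 1239 (6.87%), and the difference was at least 2-fold for 273 (1.51%). Against 0.01 nM it was called for 6432 genes (35.7%), above for 3393 (18.8%) and below for 3039 (16.8%), and was at least 2-fold for 1212 (6.72%). Differences of at least 2-fold were mostly below, with 225 below and 48 above against 0.2 nM, and 1041 below and 171 above against 0.01 nM. Of the 255 genes that fell in this interval only, 209 were also called lower from 8 to 16 h at 0.2 nM and 144 at 0.01 nM, where 16.8% and 17.7% of all genes were, and the difference from the 0.2 nM step was called for 126. Their median log2 fold change was -0.42 at 0.01 nM, -0.90 at 0.2 nM and -1.32 at 3 nM. Of the 44 that rose, 37 were also called higher at 0.2 nM and 23 at 0.01 nM, where 16.5% and 15.8% of all genes were, and the difference from 0.2 nM was called for 13. Both sets were chosen by a step of at least 2-fold at 3 nM, with no limit on the steps at the other doses. Larger medians at 3 nM and called differences between doses follow in part from that choice and are no test of dose.

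For cytosolic ribosomal proteins the median log2 fold change was 0.14 at 0.01 nM, 0.25 at 0.2 nM and 0.42 at 3 nM, and the step at 3 nM was called above that at 0.2 nM for 46 of 76 genes and below it for none. For S phase genes the medians were 0.38 at 3 nM and 0.34 at 0.2 nM, and the difference was called for 1 gene in each direction. For NF-kB targets the medians were -1.23 at 3 nM and -0.93 at 0.2 nM, with 7 of 28 called further down at 3 nM and 1, TRAF1, called less so. BHLHE41 fell by 1.93 on the log2 scale at 3 nM and by 0.66 at 0.2 nM (difference -1.26, edgeR adjusted p = 1.1e-04), while for BHLHE40 the difference was 0.14 (edgeR adjusted p = 0.2). IGFBP5 fell by 5.08 at 3 nM and by 3.11 at 0.2 nM on the log2 scale (difference -1.97, edgeR adjusted p = 1.7e-06). IL1RL1 had a log2 fold change of 3.51 at 3 nM and of 0.69 at 0.2 nM (difference 2.82, edgeR adjusted p = 0.011). HSPA8 had one of 1.14 at 3 nM and 0.59 at 0.2 nM (difference 0.55, edgeR adjusted p = 6e-11), and ASNS one of 0.46 at 3 nM and 0.23 at 0.2 nM (difference 0.23, edgeR adjusted p = 0.011). The 8 h levels differed between doses, as the time courses show for CCL2 and BIRC3, so a step of the same size need not end at the same level.

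**Figure D5:**
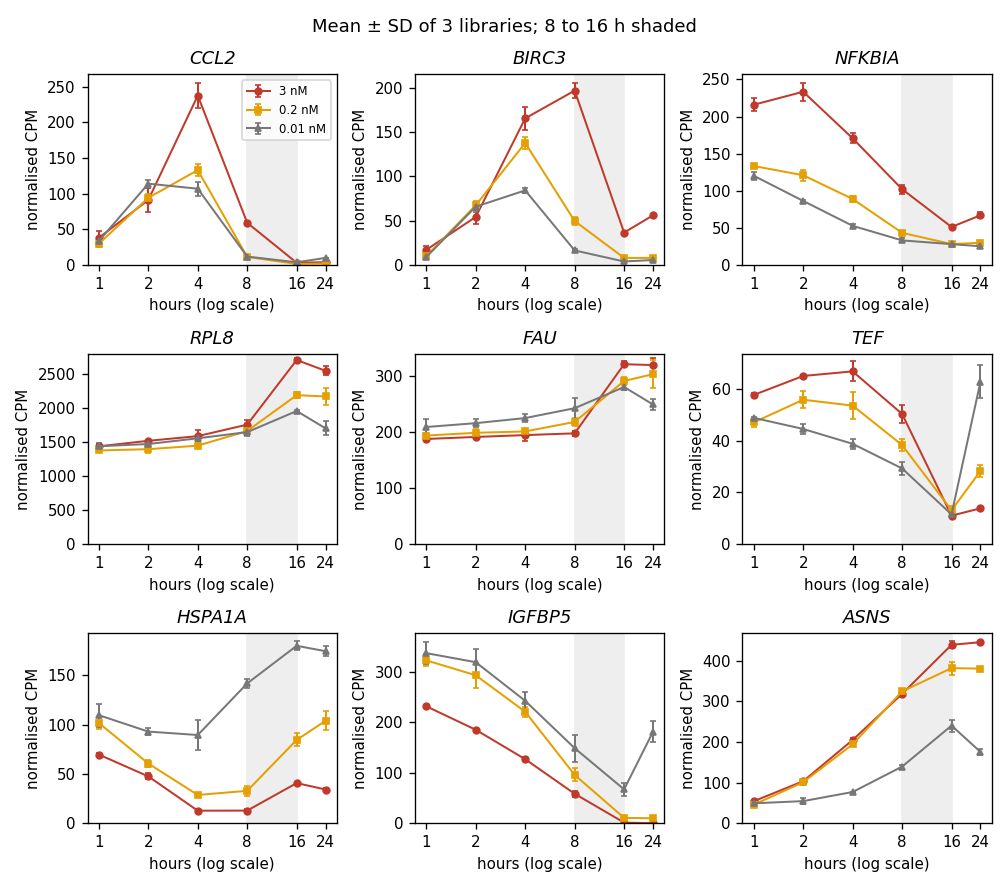
Normalised CPM (vertical axes, from 0) of 9 genes over hours of exposure (horizontal axes, log scale) at 3, 0.2 and 0.01 nM, as mean and SD of 3 libraries, with 8 to 16 h shaded. At 3 nM CCL2 and BIRC3 drop in the shaded interval, RPL8 and FAU rise in it, and ASNS rises by a log2 fold change of 0.46.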

How the data were processed

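RNA was sequenced from 60 libraries of U2OS Dmr-PERK cells, 3 in each of 20 groups by dose and time. The middle dose is labelled 0.195 nM and written 0.2 nM. The authors deposited estimated counts and TPM per gene. Salmon 0.9.1, FastQC 0.11.5 and GRCh38 are named per the submitters' processing notes, without their roles, and the annotation release is not given in the sources used here. GENCODE release 29 gave positions for 57068 of 57665 genes. Of the deposited estimated counts above 0, 54.2% were whole within 1e-06, and all were rounded. Without molecular identifiers, intervals and floors describe counting error alone.

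All 60 libraries entered 1 edgeR 4.0.16 fit in R 4.3.3 (TMM, filterByExpr, 18040 genes, 40 residual degrees of freedom, no covariate, Benjamini-Hochberg within each contrast). Standard errors are approximate, each being the log2 fold change over the root of F. In data simulated for this step with 18040 genes, 86 of 100 genes changed 2-fold and 70 of 100 changed 1.5-fold were called, and 5 of the 161 calls were of unchanged genes. The simulation changed these genes alone, equally many up and down, and gave each gene the spread of the fitted trend. The real step had far more calls and mostly falls among large changes, so these rates need not hold for it. Every library counted as 1 sample.

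Named genes include 12 fixed by name, whatever their values. The others have a mean of at least 1 CPM at 1 of the 2 times and groups that do not overlap. They are the 10 largest rises and falls and the 6 largest each way among genes changed in this interval only. Up to 4 per list described and the 5 largest differences each way from 0.2 nM are also among them. Other genes in the text were chosen after their values were seen. A few genes that met the rule are not reported here. Members, lists and rules were chosen with earlier results of these data known. Alternatives were DESeq2 1.42.0 (test and size factors), limma 3.58.1 on log2(TPM + 0.1) and log2(TPM + 1), no filter, fewer libraries, a replicate block, leaving out each library, and other limits for the interval rule.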

Additional observations from a re-analysis of the deposited data

Results flagged for a closer look

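The step from 8 to 16 h differed between doses for many genes. Against 0.2 nM the step at 3 nM was called higher for 1333 genes and lower for 1239, and against 0.01 nM higher for 3393 and lower for 3039 (edgeR adjusted p under 0.05, 18040 genes). At least 2-fold, it was higher for 48 and lower for 225 against 0.2 nM, and higher for 171 and lower for 1041 against 0.01 nM. Of the 224 named genes, 99 differed from the step at 0.2 nM, 21 of them by at least 2-fold, and 1 more moved in opposite directions. Of all genes tested, 14.3% differed and 1.51% did so by at least 2-fold. Named genes were chosen largely by their step at 3 nM, and some by this very difference, so their counts are no test. Values below are log2 differences between the steps, 3 nM minus 0.2 nM.

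The falls were larger at 3 nM for the cardiac actin gene ACTC1 (-3.43), the protocadherin gene PCDHB8 (-2.61), the apoptosis inhibitor gene BIRC7 (-2.47), LINC00319 (-2.43), MIAT (-2.03), IGFBP5 (-1.97), CXCL14 (-1.66), LUM (-1.47), ITGB8 (-1.40), COL3A1 (-1.28), BHLHE41 (-1.26) and SYT12 (-1.24). PCDHB8 had a log2 fold change of -2.60 at 3 nM and of 0.01 at 0.2 nM, where it was not called. The caspase gene CASP6 fell at 3 nM (-0.57) and rose at 0.2 nM (0.48), a difference of -1.05, and ATF3 did the same by less (-0.20 at 3 nM, 0.25 at 0.2 nM, difference -0.45).

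The step at 3 nM lay above that at 0.2 nM for OLAH (1.35), MMP3 (1.51), the BCL2 relative BCL2A1 (1.68), ESM1 (1.85), EXOC3L2 (2.05), ICAM3 (2.14), VEPH1 (2.37) and IL1RL1 (2.82). BCL2A1 and EXOC3L2 fell at both doses, by less at 3 nM. ESM1, a secreted proteoglycan of endothelium, rose at 3 nM (0.57) and fell at 0.2 nM (-1.28). The doses also differ in sequencing depth and in the set of libraries they belong to. These cannot be told apart from dose here, and their part in these differences was not tested.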

How the results depend on the processing

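The 3 nM step gave 9771 calls, and 8964 to 9194 without any 1 of the 6 libraries, with 204 to 233 genes at least 2-fold higher and 1176 to 1222 lower. Without the filter 332 were 2-fold higher. On log2(TPM + 0.1) 5315 were called and 83 were 2-fold higher, and on log2(TPM + 1) 5246 were called, 48 2-fold higher and 595 lower; 32.2% and 33.5% of the calls were higher there, against 50.4%. The interval rule depended on its limit: a tighter one left 16 higher and 49 lower (65), a 2-fold one 70 and 495 (565), and leaving out a library 38 to 45 and 224 to 250 (262 to 289). The difference from 0.2 nM had 2230 to 2558 calls without 1 library, from 0.01 nM 6037 to 6309, from 4 to 8 h 5275 to 6030 and from 16 to 24 h 5099 to 6152. With the replicate number as a block 9859 genes were called, and 10018 in the 6 libraries alone. Deviations of same-numbered libraries had correlations of 0.0325, -0.0399 and -0.0534 over 8554 genes, and those of differently numbered ones -0.0626 to 0.1053. No pairing by number was seen in the 6 libraries, but so few cannot exclude it. Of 3358 checks on 224 named genes, 69 lost a call, 5 gained one and none reversed. The read-through ZFP91-CNTF lost its call without any library but 8 h replicate 2 (edgeR adjusted p = 0.059 to 0.11). The causes were not tested. Low counts limit genes under about 1 CPM.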

Other observations

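Genes that control eIF2 itself rose slightly. Of 13 tested, 11 were higher at 16 h than at 8 h and none lower (median log2 fold change 0.19), led by DNAJC3, an inhibitor of eIF2 alpha kinases (0.56), and EIF2B3, a subunit of the factor that recharges eIF2 (0.55). On log2(TPM + 0.1) 5 were higher and none lower. Of 40 genes of the respiratory chain 32 were higher and 1 lower (median 0.22), and on log2(TPM + 0.1) 19 and 2 (median 0.13). Of 18 mitochondrial chaperones and proteases 13 were higher and none lower (median 0.21), and on log2(TPM + 0.1) 8 and none (median 0.14), with HSPD1 at 793, 804 and 803 CPM at 16 h and at 567, 599 and 598 CPM at 8 h. Of 24 NRF2 targets 17 were higher and 4 lower (median 0.30), and on log2(TPM + 0.1) 11 and 3. Among them HMOX1, which breaks down haem, was at 44.8, 45.7 and 44.2 CPM at 16 h and at 23.5, 26.1 and 24.1 CPM at 8 h (log2 fold change 0.87), while the exporter gene ABCC3 was lower (-1.21).

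Targets of YAP, a coactivator that responds to cell contact and tension, fell in part. Of 17 tested, 11 were lower and none higher (median -0.22), and CYR61, a common reporter of the pathway, was not called (0.08). The median of the list was -0.31 from 2 to 4 h and -0.45 from 4 to 8 h, so its fall began before this step. The secreted cytokine gene LIF was at 59.4, 61.1 and 60.9 CPM at 16 h and at 178, 175 and 175 CPM at 8 h (log2 fold change -1.54). TSLP, another secreted cytokine gene of the same list, was at 21.99, 22.7 and 25.2 CPM at 16 h and at 8.18, 9.80 and 9.32 CPM at 8 h (log2 fold change 1.35). Genes described in these paragraphs outside the rule for named genes were chosen after their values were seen.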
